A study of Mus musculus with 22 samples.

Results

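Wild-type CREB was compared with GFP in depolarized mouse cortical neurons after 4 h of virus expression, using 2 libraries for each virus out of the 22 libraries of the series. The libraries were chosen by their labels alone, and GFP replicate 1 was set against WT replicate 1 and GFP replicate 2 against WT replicate 2. Of the 24490 gene entries in each table, the 1258 small RNA entries (Mir, Snord and Snora names) were set aside. A further 9 entries with a failed estimate at 4 h were left out, and 11707 genes that averaged 1 FPKM or more at 4 h were tested.

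All libraries came from cortical neurons of C57BL/6 embryos at stage E16.5 with the genotype Creb1-/-, and were harvested at day 7 in vitro. The deletion was therefore carried by the GFP controls as well. Cultures were silenced with 1 µM tetrodotoxin (TTX, which blocks sodium channels) and 100 µM D-AP5 (which blocks NMDA receptors), received a herpes simplex virus (HSV) for 4 h, and were then depolarized for 2 h with 55 mM KCl. At 4 h the virus carried GFP, wild-type CREB (WT), or CREB with serine 40, a glycosylation site, changed to alanine (S40A). The S40A group also had 2 libraries at 4 h. For the later time, 4 GFP and 4 WT libraries with 8 h of virus were used. The remaining 8 h libraries carried S40A, CREB changed at S133 (S133A) or CREB with both changes (S40A-S133A). They entered only the scaling, fits and counts over all 22 libraries. No library without depolarization was among the samples, so every level below is a level after KCl. The promoter that drives CREB in the virus and the share of neurons infected are not given in the sources used here. Nothing in the labels ties a replicate number to its own culture or dissection, and the p-values below therefore cover the spread between these libraries, which may be technical.

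CREB is a transcription factor that binds the cAMP response element (CRE) in promoters. When membrane depolarization raises calcium in a neuron, kinases of the CaMK, PKA and ERK-RSK pathways phosphorylate it at a serine of its kinase-inducible domain (the one labelled S133 in this series), which recruits the coactivators CBP and p300. Its best known neuronal targets are immediate early genes such as Fos, Nr4a1 and Npas4, whose transcription starts within minutes of depolarization without new protein synthesis, and secreted or synaptic effectors such as Bdnf.

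Promoters of genes described below were searched for the full CRE, TGACGTCA, and for its half-sites, TGACG and CGTCA, on both strands. The window ran from 250 bases before to 50 after the annotated start, in RefSeq's GRCm38.p6 table. The full element contains both half-sites. The half-site search was added after expression values had been seen. The 30-base stretches below are shown because these genes stood among the immediate early, feedback or other named genes of the comparison. They are written 5′ to 3′ on the gene's strand, with the upstream match nearest the start in capitals (of the full element where there is one); other matches in a stretch, such as a second half-site in that of Npas4, stay in lower case.
Fos, half-site, chr12:85473811-85473840, plus strand: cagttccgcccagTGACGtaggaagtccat
Npas4, half-site, chr19:4990124-4990153, minus strand: cgacgtcacgggaTGACGtcggaagtctgg
Nr4a1, half-site, chr15:101266793-101266822, plus strand: gcccctctccatgCGTCAcggagcgcttaa
Csrnp1, half-site, chr9:119983794-119983823, minus strand: cggagttttccacTGACGaggagggcggag
Maff, full element, chr15:79347480-79347509, plus strand: ggctggggcggTGACGTCActgcatgactg
Btg2, full element, chr1:134079303-134079332, minus strand: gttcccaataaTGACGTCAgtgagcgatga
Errfi1, full element, chr4:150855008-150855037, plus strand: gctgcgggcgtTGACGTCAcgttgtcgctc
Ppp1r15a, full element, chr7:45526269-45526298, minus strand: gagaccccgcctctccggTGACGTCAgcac
Hps4, full element, chr5:112343017-112343046, plus strand: ccgccatgctcTGACGTCAgcagagtgcgc

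Among the 8794 tested genes with a window, 3.90% held the full element and 37.1% held a half-site. Of the 21 immediate early transcription factors with a window, 2 held the full element (Maff and Btg2) and 15 held a half-site. Of 25 known CREB target genes with a window, 6 held the full element and 23 a half-site. The known targets were listed with their promoters known, so those counts are no independent evidence. Signal feedback inhibitors had 3 full elements and 11 half-sites in 23 windows, ribosomal protein genes 4 and 27 in 55 windows, and pan-neuronal marker genes 0 and 1 in 6 windows. The 10 genes named below as higher in WT, Creb1 among them, held 0 full elements and 2 half-sites, or 20.0%, below the 37.1% of all genes. The named lower genes held 1 full element and 2 half-sites in 6 windows. Dusp1, Sst and Scg2, described below but not printed above, also held the full element. These are matches of letters and not measured binding.

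Creb1 was far higher in WT than in GFP. Its levels, in FPKM scaled between libraries, were 11.4 and 15.2 in GFP replicates 1 and 2 and 235.3 and 243.7 in WT replicates 1 and 2. The groups did not overlap, and both WT libraries lay close together. The S40A libraries read 224.2 and 261.1, around the WT values. The WT to GFP ratio was 20.7 in the first pair and 16.1 in the second. On the log2(value + 1) scale, used throughout and tending to understate changes of low genes, the difference was 4.09 (SE 0.116), or 17.0-fold (95% interval 14.0 to 20.6), with a limma adjusted p of 0.00017. Without the pairing of replicates the size was the same and the limma adjusted p was 0.065. S40A and WT differed by 1.01-fold (0.832 to 1.23), with a limma adjusted p of 1. Creb1 lies at chr1:64532804-64604548 (mm10). The GFP libraries of the Creb1-/- neurons still held Creb1 FPKM above 10, and the sources used here do not say which part of the gene the deletion removes.

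**Figure D1:**
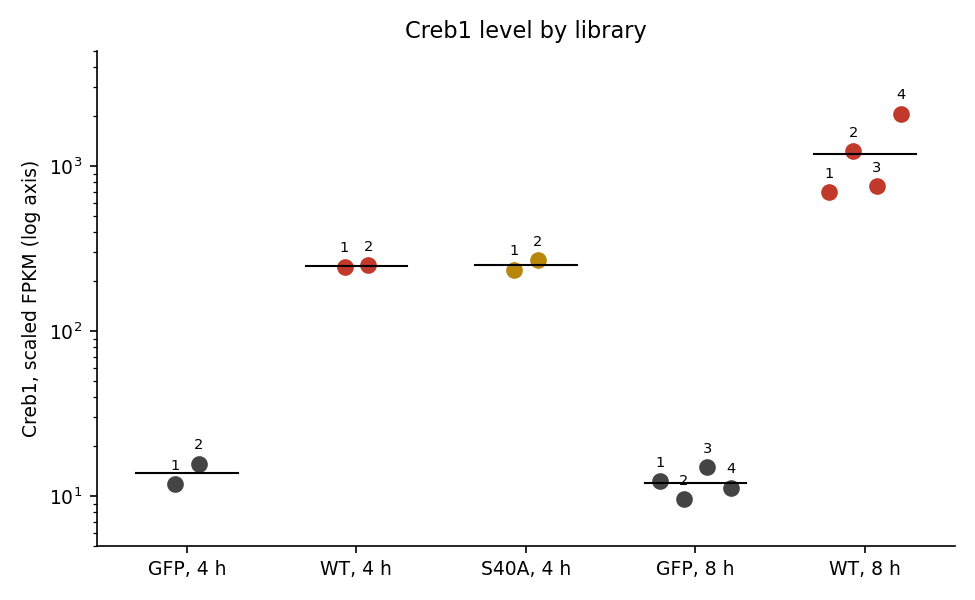
Creb1 level in each library of GFP, WT and S40A at 4 h and of GFP and WT at 8 h, in FPKM scaled over all 22 libraries, on a log axis; each point is a library with its replicate number and each line a group mean. On this scale GFP at 4 h reads 11.8 and 15.7 and WT at 4 h 245.8 and 250.8, while WT at 8 h spans 694.6 to 2077.5.

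Creb1 read lower in WT at 4 h than at 8 h. The times come from separate sets of libraries, so time and set cannot be told apart. In WT libraries with 8 h of virus, Creb1 ranged from 694.6 to 2077.5 FPKM on the scale of all 22 libraries, above both 4 h libraries at 245.8 and 250.8. The fitted WT to GFP fold was 83.9 at 8 h. The difference between the times was -2.30 on the log2 scale (95% interval -3.40 to -1.19, unadjusted p = 0.0006 in a limma fit of 22 libraries). Its limma adjusted p over 11687 genes was 1, so Creb1 did not pass the test of a difference between times.

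Beside Creb1, 1 other entry passed the test at 4 h. At a limma adjusted p under 0.05, 1 gene was higher (0.00854% of the genes tested) and 1 lower (0.00854%), 0.0171% in all. The lower entry was DQ267100, a 71-base entry at chr12:109649617-109649687. Small RNA entries were set aside by name only, and this short entry, named otherwise, stayed in the test. It was listed at 249.7 and 143.9 in GFP, at 0 in both WT libraries, and at 387.2 and 131.1 in S40A, with a limma adjusted p of 0.001. It was at 0 in 11 of the 22 libraries of the series, 10 of them among the CREB libraries and 1 among the 6 GFP libraries. An exact 0 in an FPKM table can be a failed estimate, and no fold is given. The call was lost without the pairing (limma adjusted p = 0.27), without the filter on low values (0.13) and in the fit of all 22 libraries (1).

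An unadjusted p under 0.05 in the limma fit was reached by 268 genes (2.29%), of which 222 (1.90%) were higher and 46 (0.393%) lower in WT. The number of calls depended on single libraries: it was 23 without GFP replicate 1, 94 without GFP replicate 2, 10 without WT replicate 1 and 12 without WT replicate 2.

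The pairs did not repeat each other across genes. WT was higher than GFP in both pairs for 2461 genes (21.0%), lower in both for 1921 (16.4%), and opposite in the pairs for 7325 (62.6%). Within 1 pair alone WT was higher for 46.3% in the first and 57.9% in the second. Each list count below is to be read against these shares. Across the 11707 genes, which are not independent replicates, the within-pair differences correlated at Pearson -0.18 and Spearman -0.29. They were small in most genes, with the middle 50% between -0.15 and 0.13 in the first pair and between -0.08 and 0.13 in the second.

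The 2 replicates also differed as files. The 3 replicate 1 libraries at 4 h summed to 422524 to 444454 FPKM, against 314062 to 322006 in the 3 replicate 2 libraries. In replicate 1, 14.7% to 15.6% of the entries above 1 FPKM lay outside their own deposited bounds, and 347 entries in each were marked as low data; both were 0 in the other 19 libraries. Every 4 h group held 1 library of each kind, so WT minus GFP is compared within a kind. Creb1 was an example: WT replicate 1 had a deposited value of 257.7 FPKM with deposited bounds of 258.6 to 264.9.

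**Figure D2:**
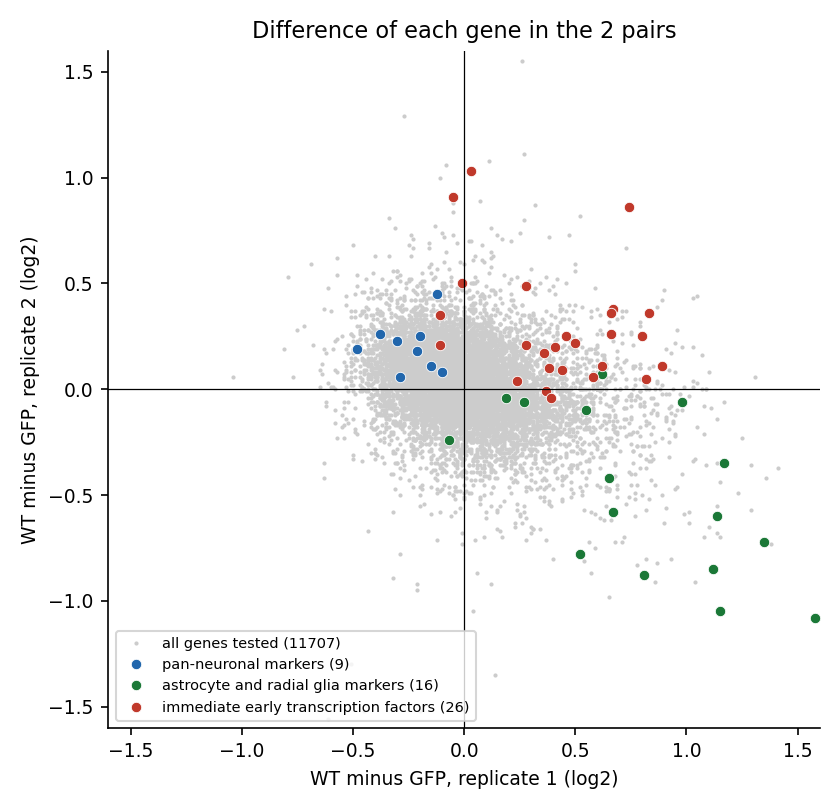
WT minus GFP on the log2 scale for each gene tested, replicate 1 on the horizontal and replicate 2 on the vertical axis, with 3 gene lists coloured; 45 genes, none of them in these lists, fall outside the axis limits of 1.6. Immediate early transcription factors lie mainly in the upper right, astrocyte and radial glia markers mainly in the lower right, and pan-neuronal markers all in the upper left.

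The immediate early transcription factors were higher in WT as a list, by a small amount. Of 28 listed genes 26 were measured, and 20 of the 26 were higher in both pairs, 0 were lower in both and 6 were opposite, against 21.0% higher in both among all genes. The median difference was 0.36, with 0.43 in the first pair and 0.21 in the second, against 0.01 over all genes tested. None was called, and 7 of the 26 had an unadjusted limma p under 0.05, against 2.29% of all genes tested. The second pair alone had 24 of 26 members higher and the first pair alone 22. Without WT replicate 1 the median fell to 0.12 and without WT replicate 2 it was 0.50.

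Csrnp1, a nuclear protein induced by axin, had the largest difference of the list. It read 4.83 and 8.26 in GFP and 8.76 and 15.8 in WT, so that both WT libraries lay above both GFP libraries. The difference was 0.80 (SE 0.169, limma adjusted p = 1). Klf10 and Klf6 were the other members whose groups did not overlap. Klf10, a zinc finger repressor, read 9.13 and 10.0 in GFP and 11.3 and 14.5 in WT. Klf6 read 47.9 and 48.2 against 56.9 and 49.5. Over all genes tested, WT lay above both GFP libraries in 4.66%.

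For Fos, Npas4 and Nr4a1 the replicates were far apart. Fos, the founding immediate early gene, read 251.8 and 791.1 in GFP and 323.4 and 889.0 in WT. Each WT value was above the GFP value of its pair, while WT replicate 1 was below GFP replicate 2. Npas4, a neuron-specific activity-dependent factor, read 94.3 and 297.9 in GFP and 130.0 and 354.6 in WT. Nr4a1, an orphan nuclear receptor, read 128.8 and 597.2 in GFP and 192.8 and 622.3 in WT, a difference of 0.58 in the first pair and 0.06 in the second. All 3 had the same arrangement, with replicate 2 the higher library in both groups. Over the measured list, replicate 2 exceeded replicate 1 by a median of 1.85 in GFP and 1.43 in WT on the log2 scale, against the median of 0.36 between the viruses.

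Maff and Btg2, the members with the full CRE printed above, were among the larger differences. Maff, a small Maf protein, read 10.6 and 42.0 in GFP and 19.6 and 54.0 in WT (0.83 and 0.36 by pair). Btg2, an antiproliferative cofactor, read 2.58 and 17.2 against 5.22 and 20.7 (0.80 and 0.25). Atf3, a CREB-related stress-induced factor, read 2.70 and 15.5 against 4.89 and 20.5. Each was higher in both pairs and overlapped between groups. Their limma adjusted p-values were 1.

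The 4 Egr zinc finger factors split by pair. Egr2 was higher in both, at 4.13 and 34.1 in GFP and 7.11 and 44.0 in WT. Egr3 read 4.79 and 26.4 in GFP and 4.91 and 55.0 in WT, a difference of 0.03 in the first pair and 1.03 in the second. Egr4 differed by -0.05 and 0.91. Egr1 went the other way, at 132.1 and 375.6 in GFP and 171.4 and 372.1 in WT, a difference of 0.37 and then -0.01. Myc and Jund were lower in the first pair and higher in the second.

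**Figure D3:**
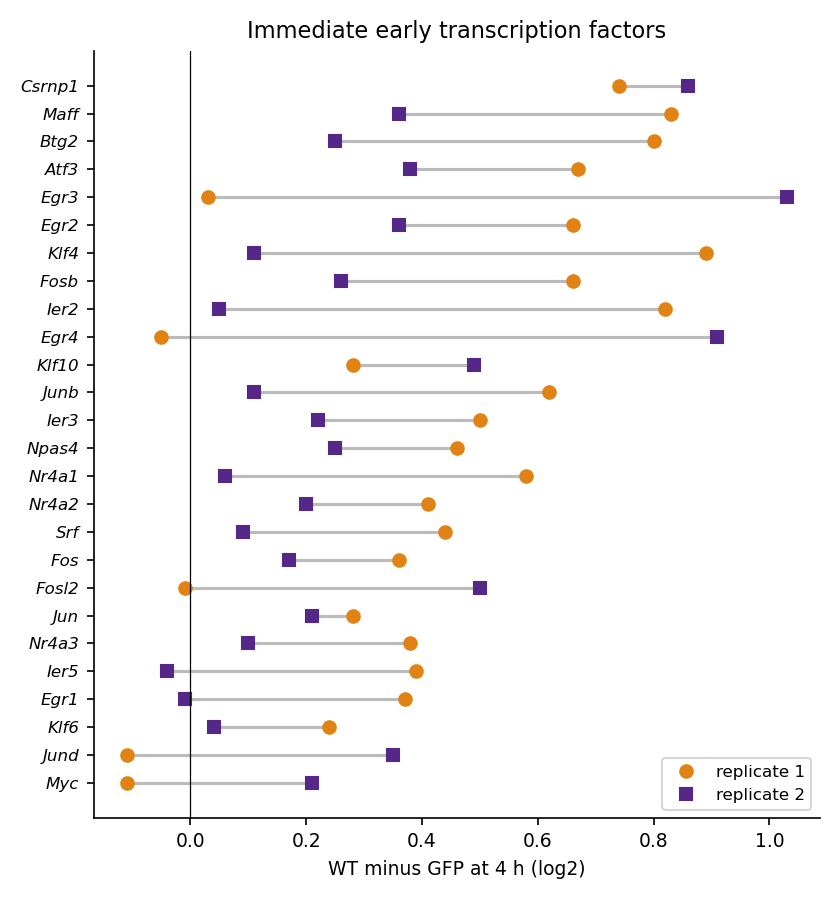
WT minus GFP on the log2 scale for the 26 measured immediate early transcription factors, with replicate 1 as orange circles and replicate 2 as purple squares, ordered by the fitted difference. In 20 genes both symbols lie to the right of 0, and Csrnp1 has the largest fitted difference at 0.80.

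Known CREB target genes leaned the same way. Of 40 listed, 35 were measured, 21 were higher in both pairs and 1 (Tac1) lower in both, with a median of 0.24 (0.10 in the first pair, 0.20 in the second). The list shares 8 genes with the immediate early factors. Among the 27 others, 14 were higher in both pairs, 1 was lower in both, and the median was 0.22. In the second pair alone 32 of 35 were higher, and in the first pair alone 23, against 57.9% and 46.3% of all genes in those pairs. Other lists also leaned upward in the second pair. Pan-neuronal markers (9 of 9) and oxidative phosphorylation genes (35 of 35) were higher there, with medians of 0.19 and 0.20. In the first pair 0 and 1 of these genes were higher. Astrocyte and radial glia markers were the reverse, with 1 of 16 higher in the second pair and 15 in the first. The median of the known CREB target genes was 0.34 without GFP replicate 1, 0.08 without GFP replicate 2, and 0.10 without WT replicate 1.

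Gadd45b, a stress and demethylation-linked factor, had the largest difference among targets higher in both pairs. It read 19.4 and 48.2 in GFP and 27.3 and 80.5 in WT, a difference of 0.60 (SE 0.106, limma adjusted p = 1). Arc, a synaptic capsid-like protein that is also an immediate early gene, read 10.5 and 19.6 against 12.7 and 26.2. Mcl1, an antiapoptotic BCL2 relative, read 54.8 and 124.7 against 71.5 and 143.8. In all 3 the WT library was the higher one of each pair, and the groups overlapped.

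Crem, whose inducible form represses CRE promoters, read 13.3 and 31.6 in GFP and 14.1 and 38.0 in WT (0.08 and 0.26 by pair). Bdnf, a secreted neurotrophin, read 12.1 and 18.3 in GFP and 10.8 and 29.6 in WT, a difference of -0.16 in the first pair and 0.67 in the second. Of the neuropeptide targets named next, all but Tac1 showed the same opposition, Penk by very little in the second pair. Somatostatin (Sst) read 366.9 and 180.7 in GFP and 274.9 and 203.8 in WT, and Scg2, a secretory granule protein, 79.9 and 74.9 against 60.4 and 116.3. The promoters of Sst and Scg2 both hold the full CRE. Penk, the enkephalin precursor, read 7.52 and 2.62 against 5.03 and 2.67. Tac1, the substance P precursor, read 2.93 and 2.47 against 2.07 and 2.46. Both its WT libraries lay below both GFP libraries, though 2.46 and 2.47 are nearly equal, as in 4.15% of all genes tested.

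More activity-regulated effectors were higher in WT in the second pair than in the first. Of 31 measured, 13 were higher in both pairs and 2 lower, with medians of -0.04 in the first pair and 0.32 in the second. In the second pair 28 were higher, and in the first 14. Pim1, a serine/threonine kinase, led those higher in both pairs at 6.38 and 17.7 in GFP and 8.20 and 33.1 in WT. Inhba, the activin A subunit, read 3.19 and 6.85 against 3.05 and 13.0. Homer1, a postsynaptic scaffold with an activity-induced short form, read 28.9 and 213.0 against 29.3 and 266.2. FPKM per gene does not separate its forms. None of the list was called.

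Signal feedback inhibitors had 14 of 30 measured members higher in both pairs and 2 lower in both, with a median of 0.13. By pair the median was 0.03 with 17 members higher and 0.13 with 25 higher. It was 0.21 without GFP replicate 1 and -0.02 without GFP replicate 2. Dusp5, a nuclear ERK phosphatase, read 8.24 and 6.72 in GFP and 11.2 and 9.87 in WT, so the groups did not overlap. WT lay above both GFP libraries in 2 of the 30 members, near the 4.66% of all genes tested. Errfi1, an inhibitor of EGF receptor family signalling whose promoter holds the full CRE, read 13.1 and 23.3 against 16.2 and 30.0. Spry2, an inhibitor of receptor tyrosine kinase signalling, read 39.2 and 77.0 against 49.3 and 93.3. The limma adjusted p-values were 1. Dusp1, which also inactivates MAP kinases and whose promoter holds the full CRE, differed by 0.46 in the first pair and 0.02 in the second.

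CREB's relatives and coactivators, apart from Creb1, had no call. With Creb1 counted, 4 of 16 measured genes were higher in both pairs (21.0% of all genes) and 3 lower (16.4% of all genes). The median was 0.05, with 0.20 in the first pair and -0.02 in the second, and it was -0.02 without GFP replicate 1, -0.03 without WT replicate 1 and 0.18 without GFP replicate 2. Atf4, the main factor of the integrated stress response, read 226.4 and 331.4 in GFP and 279.0 and 414.3 in WT, a difference of 0.30 and 0.32 in the pairs. Crebbp, which encodes CBP, read 19.4 and 25.4 against 22.4 and 27.4. Ep300, its paralog, read 16.1 and 21.2 against 22.1 and 19.7. Crtc1, a calcium-regulated CREB coactivator, read 18.3 and 23.9 against 17.0 and 23.6. Atf1, the closest CREB relative beside Crem, read 5.42 and 5.09 against 7.04 and 4.09.

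Most kinases and phosphatases that act on CREB differed in opposite directions in the pairs. Of 28 measured, 22 were opposite, 2 were higher in both pairs and 4 lower. Among all genes tested these shares were 62.6%, 21.0% and 16.4%. The medians of this list were -0.15 and 0.11 in the pairs. Camk1 read 6.18 and 1.89 in GFP and 3.99 and 1.58 in WT. Camk4, a nuclear CREB kinase, read 5.37 and 10.6 against 4.80 and 10.8. The genes that add, remove or make the donor of O-GlcNAc, the sugar carried by serine 40, had 3 of 11 higher in both pairs and 1 lower. Over all genes tested, 21.0% were higher in both pairs and 16.4% lower. Ogt, the transferase, read 26.9 and 55.5 in GFP and 29.6 and 53.6 in WT, and Mgea5, the hydrolase that removes the sugar, 56.6 and 72.0 against 59.0 and 70.5.

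**Figure D4:**
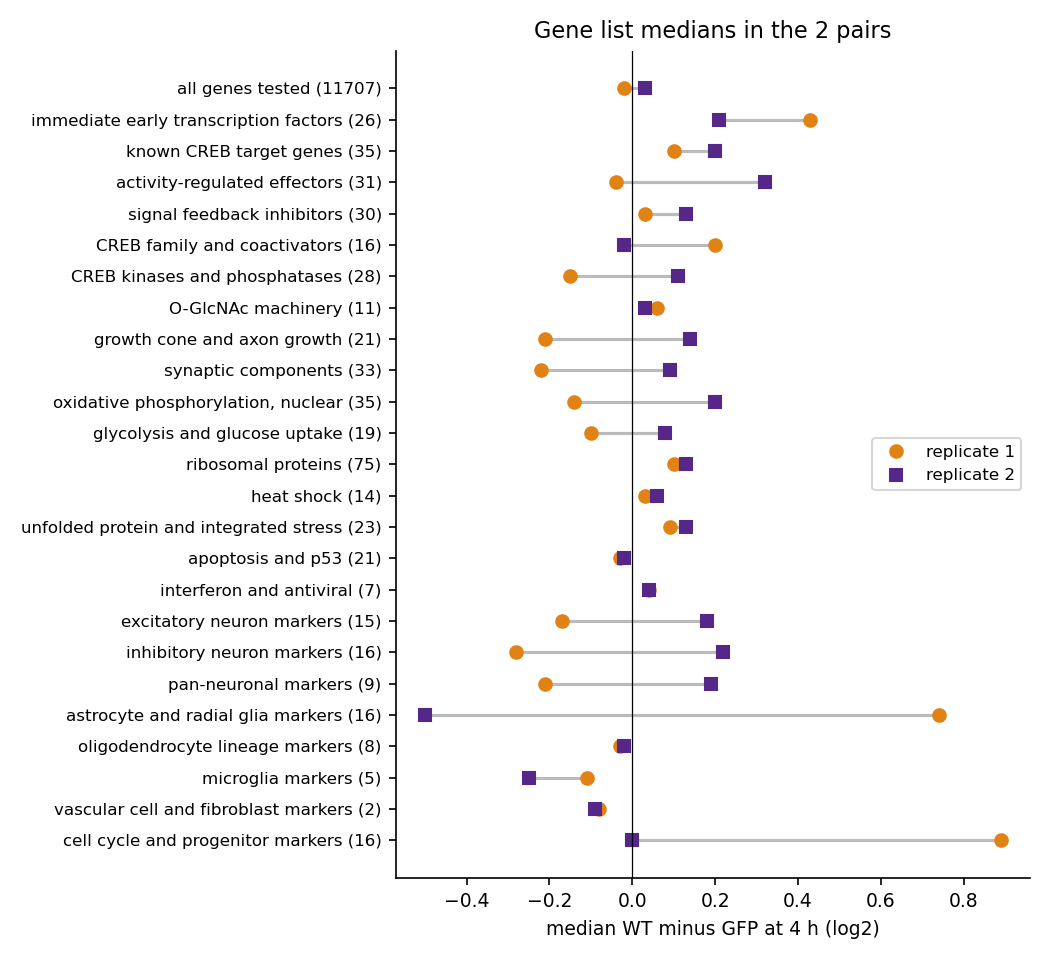
Median WT minus GFP on the log2 scale for all genes tested and for each list with more than 1 measured gene (number measured in brackets), with replicate 1 as circles and replicate 2 as squares. Immediate early factors lie at 0.43 and 0.21, while astrocyte and radial glia markers lie at 0.74 and -0.50.

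Markers of neurons and of glia differed between WT and GFP in opposite directions in the pairs. In bulk RNA, fewer cells of a type and less RNA per cell cannot be told apart. Neuronal markers were present at high levels in all libraries, such as Map2 at 154.0 and 207.2 in GFP and 143.8 and 218.6 in WT. All 9 pan-neuronal markers were lower in WT in the first pair and all 9 higher in the second, with medians of -0.21 and 0.19. Inhibitory neuron markers had medians of -0.28 and 0.22. Gad1, the main GABA-synthesizing enzyme, read 123.0 and 93.5 in GFP and 90.4 and 118.9 in WT. Excitatory neuron markers had medians of -0.17 and 0.18.

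Astrocyte and radial glia markers were reversed. In the first pair 15 of 16 were higher in WT, with a median of 0.74, and in the second 1 of 16, with a median of -0.50. Their summed level went from 432.6 in GFP to 908.5 in WT in the first pair and from 567.4 to 412.7 in the second. Fabp7, a fatty acid binding protein of radial glia, read 189.5 and 214.2 in GFP and 483.5 and 129.3 in WT. Aldoc, an astrocytic aldolase, read 11.9 and 13.7 against 37.8 and 5.96. Gfap, an astrocyte filament, read 1.36 and 3.98 against 4.15 and 1.77. WT replicate 1 was the highest of the 4 libraries and WT replicate 2 below both GFP libraries for Fabp7 and Aldoc. The part of these markers in the other results was not tested.

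Cell cycle and progenitor markers were higher in the first pair and level in the second. All 16 were higher in the first pair (median 0.89) and 8 in the second (median 0.00), and their summed level was 172.9 and 130.1 in GFP and 285.6 and 138.2 in WT. Mki67, a marker of dividing cells, read 8.50 and 6.30 in GFP and 20.0 and 5.63 in WT. Of the lists, this one had the highest median of the fit, 0.41. That median was -0.01 without GFP replicate 1, 0.21 without WT replicate 1, 0.88 without GFP replicate 2 and 0.66 without WT replicate 2. In the fit of all 4 h libraries, 4 of the 16 members (Birc5, Pcna, Sox2 and Cdk1) had an unadjusted limma p under 0.05. Among all genes tested the share was 2.29%.

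Few markers of microglia, vessels and blood reached the minimum. Of 12 microglia markers 5 were measured, and Cx3cr1 was between 0.113 and 0.293. Of 14 vascular and fibroblast markers 2 were measured, and Cldn5 was between 0 and 0.165. None of 7 blood markers reached the minimum, with Hbb-bs at 0 in all 4 libraries. Oligodendrocyte lineage markers were present, with a summed level of 59.4 and 66.0 in GFP and 66.1 and 83.3 in WT. Of the 8 measured, 3 were higher in both pairs and 4 lower, against 21.0% and 16.4% of all genes. The 3 higher ones (Olig1, Olig2 and Pdgfra) had an unadjusted limma p under 0.05, as had 2.29% of all genes. Olig2, a factor of precursor cells, read 13.6 and 21.9 in GFP and 18.7 and 28.6 in WT, while Mbp, the myelin protein, read 7.51 and 7.84 against 6.66 and 6.97.

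Oxidative phosphorylation, growth cone and synapse genes had the same signs by pair as the neuronal markers. Nuclear genes of oxidative phosphorylation were higher in 1 of 35 in the first pair and in 35 of 35 in the second, with medians of -0.14 and 0.20. Synaptic components had 1 of 33 higher in both pairs and 6 lower in both, with medians of -0.22 and 0.09. Growth cone genes had medians of -0.21 and 0.14. Gap43, a growth cone phosphoprotein, read 692.8 and 528.1 in GFP and 532.2 and 504.6 in WT. Glycolysis genes had 1 of 19 higher in both pairs and 2 lower.

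Ribosomal protein genes were slightly higher in WT in both pairs. Of 75 measured, 47 were higher in both and 1 was lower in both, with a median of 0.12 (0.10 and 0.13). The list's median was 0.08 without scaling between libraries and also with quantile normalization. The levels themselves differed between replicates by a median of -2.46 on the log2 scale, replicate 2 being lower in GFP and WT alike. Rpl11 read 196.3 and 0.245 in GFP and 202.6 and 0.414 in WT. These genes have many near-identical processed copies in the genome, and the sources used here do not say how reads matching several places were counted, so their values are uncertain. Rps15 was among those with similar levels in the replicates, at 420.0 and 339.1 in GFP and 476.4 and 389.3 in WT.

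Stress genes gave little beyond Atf4. Among unfolded protein and integrated stress genes 9 of 23 were higher in both pairs and 0 lower, with a median of 0.10 (0.09 and 0.13 by pair). The median was 0.15 without GFP replicate 1 and 0.06 without GFP replicate 2. Ddit4, an inhibitor of mTORC1, read 75.7 and 67.9 in GFP and 87.7 and 83.3 in WT, with no overlap. WT lay above both GFP libraries in 3 of the 23 genes and in 4.66% of all genes tested. Ppp1r15a, the eIF2α phosphatase subunit whose promoter holds the full CRE, read 67.4 and 60.7 against 89.4 and 61.8. Ddit3 was listed at 14.4 in WT replicate 1 and at 0 in the other 3 libraries. Heat shock genes had 5 of 14 higher in both pairs, with a median of 0.06 that was 0.03 without GFP replicate 2 and 0.02 without scaling, and apoptosis and p53 genes 4 of 21 higher and 6 lower. Of 32 interferon and antiviral genes 7 were measured, and 3 were higher in both pairs; the GFP controls received the same kind of virus.

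Outside the lists, genes were named by the smaller of their within-pair differences. At least 1.5-fold on the log2(value + 1) scale was reached upward in both pairs by 3 genes (0.0256%), namely Creb1, Csrnp1 and Sertad1, and downward by 4 (0.0342%), namely DQ267100, Scarna2, Scarna6 and BC002163. The last 2 were named after their values were seen, and BC002163, an entry with a duplicated symbol, read 11.3 and 5.93 in GFP and 0 and 3.05 in WT. Sertad1, a transcriptional regulator of the cell cycle, read 8.58 and 25.3 in GFP and 14.9 and 40.7 in WT, a difference of 0.70 (SE 0.116, limma adjusted p = 1). Lbr, the lamin B receptor, read 10.3 and 12.3 against 16.0 and 17.5. Both its WT libraries lay above both GFP libraries, as in 4.66% of all genes tested. Its limma adjusted p was 1.

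Further genes named as higher were Pou3f2, Stat3, Rgcc, Birc5 and Cdc20, each with a limma adjusted p of 1. Pou3f2, a neural POU factor, read 4.46 and 10.3 in GFP and 6.53 and 15.0 in WT. Stat3, the cytokine-activated factor, read 12.0 and 18.7 against 16.3 and 25.9. Birc5 (survivin), which acts in mitosis, read 4.85 and 3.01 against 9.90 and 4.55, and Cdc20, an activator of the anaphase-promoting complex, 5.34 and 2.62 against 12.0 and 3.86. These last 2 belong to cell division, as do the progenitor markers above, and their part in the result was not tested. Without GFP replicate 2 Birc5 had a limma adjusted p of 0.034, and without GFP replicate 1 Gadd45b had one of 0.043.

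Genes named as lower had small differences or rested on an exact 0. Cort, the cortistatin precursor of interneurons, read 11.4 and 13.9 in GFP and 7.75 and 11.0 in WT, without overlap (-0.41, SE 0.102). Gins4, a subunit of the replicative helicase, read 8.95 and 9.24 against 7.20 and 7.11. Larp6, an RNA-binding protein, read 6.83 and 5.08 against 4.99 and 3.91. In each of the 3 both WT libraries were below both GFP libraries, which held for 4.15% of all genes, and the limma adjusted p-values were 1. Ntng2, a netrin-G of axons, read 32.6 and 23.2 against 24.8 and 19.5, and the noncoding host gene Snhg11 34.2 and 27.9 against 28.1 and 22.1. Hps4, a subunit of a lysosome-related organelle complex whose promoter holds the full CRE, read 5.05 and 12.4 against 3.69 and 9.78.

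Scarna2, a small Cajal body RNA, was listed at 772.6 and 488.5 in GFP, 405.9 and 0 in WT, and 0 in both S40A libraries. Scarna6, another of this kind, read 2.65 and 1.95 against 1.39 and 0. Phtf1 read 8.54 and 6.63 in GFP and 6.77 and 0 in WT. With WT replicate 1 left out, so that the value at 0 stood alone, Scarna2 and Phtf1 had limma adjusted p-values of 1.3e-11 and 6.9e-06. Dynlt1b, a dynein light chain with near-identical copies, read 52.0 and 2.89 against 42.4 and 2.25 and is uncertain for that reason.

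S40A was set against WT directly, which tests whether loss of the glycosylation site changed the response at 4 h. DQ267100 was the 1 entry called (0.00854%, limma adjusted p = 0.0017), with WT at 0 as above, and 154 genes (1.32%) had an unadjusted limma p under 0.05. S40A was lower than WT in both pairs for 20 of the 26 immediate early factors and higher for 1, against 27.8% lower and 22.9% higher among all genes, with a median of -0.40. This comparison shares its WT libraries with WT minus GFP. By pair the immediate early median was -0.69 and -0.12 for S40A minus WT. Fos read 172.9 and 792.1 in S40A, Npas4 60.6 and 300.5, and Nr4a1 85.0 and 537.2. For these 3 genes S40A was below both the GFP and the WT value in replicate 1, and in replicate 2 it was below WT.

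Pou3f2, Birc5 and Rgcc lay nearer to WT than to GFP in both S40A libraries. Pou3f2 read 6.76 and 15.0 in S40A. Birc5 read 10.7 and 4.23, and Rgcc, a cell cycle and complement response gene, 6.37 and 14.2 against 7.15 and 10.3 in WT and 2.95 and 7.29 in GFP. Csrnp1 was at 5.42 in S40A replicate 1, near the GFP value of that pair, and at 15.1 in replicate 2, near the WT value. Stat3 read 14.1 and 28.9 in S40A, between GFP and WT in the first replicate and above both in the second. None of these differences from WT was called.

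At 8 h the immediate early list did not keep 1 direction. Its median WT minus GFP was -0.03, 0.41, 0.04 and -0.56 in replicates 1 to 4, against 0.43 and 0.21 at 4 h. The replicate 2 pair at 8 h holds an unusual GFP library. That library summed to 394978 FPKM, against at most 336038 in the other 8 h libraries. It had 6417 entries at 0, against at least 7274 in the others. Its part in the 8 h medians was not tested. Known CREB targets had medians of -0.04, 0.30, 0.15 and -0.57. For Csrnp1 the 8 h differences were 0.18, 0.60, 0.02 and -0.48, and for Sertad1 0.04, 0.41, -0.23 and -0.78. In the joint fit 0 genes (0%) had a WT effect that differed between 4 h and 8 h at a limma adjusted p under 0.05, and 173 (1.48%) had an unadjusted p under 0.05. Each time had its own sets of libraries, so time and set cannot be told apart. Csrnp1 differed by 0.73 between the times (SE 0.40, limma adjusted p = 1) and Sertad1 by 0.85 (SE 0.36, adjusted p = 1).

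**Figure D5:**
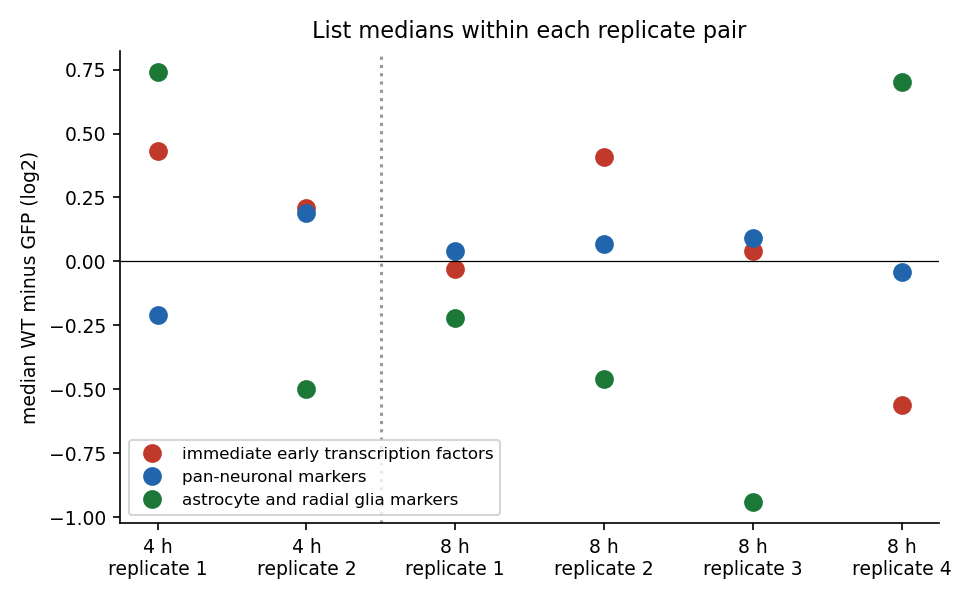
Median WT minus GFP on the log2 scale within each pair of same-numbered libraries, 2 pairs at 4 h and 4 pairs at 8 h, for 3 gene lists. Immediate early factors are above 0 in both pairs at 4 h and range from -0.56 to 0.41 at 8 h, and astrocyte and radial glia markers are at 0.74 and -0.50 at 4 h and range from -0.94 to 0.70 at 8 h.

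Glial markers also differed in sign between the pairs at 8 h. The astrocyte and radial glia medians were -0.22, -0.46, -0.94 and 0.70 in replicates 1 to 4. The pan-neuronal medians were 0.04, 0.07, 0.09 and -0.04. The immediate early medians in the same 8 h replicates were -0.03, 0.41, 0.04 and -0.56. At 4 h the glial medians were 0.74 and -0.50, and the immediate early medians 0.43 and 0.21. The part of the glial markers in the immediate early result was not tested.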

How the data were processed

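Each library came as 1 table of FPKM values deposited by the authors, made with CASAVA 1.7, Bowtie 0.12.2 and Cufflinks (version not given in the sources used here) per the submitters' processing notes, which name mm8 and mm10; the positions fall on mm10 and are given counted from 1. FPKM is a level per length of transcript and per library size. With no statement on strand, reads of overlapping or antisense genes cannot be separated. Read depth is unknown. In the replicate 2 tables the half-width of the deposited bounds was a median of 20.4% (GFP) and 20.3% (WT) of the value at 1 to 2 FPKM, 9.04% and 8.82% at 5 to 10, and 3.88% and 3.86% at 50 to 100. No libraries held identical values, and 766 entries share a symbol with another.

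FPKM values at 4 h were scaled by median-of-ratios factors and log2(FPKM + 1) was fitted with limma 3.58.1 in R 4.3.3 (mean-variance trend, two-sided moderated test, Benjamini-Hochberg over all 11707 genes), with group and replicate number as terms over the 6 libraries at 4 h, leaving 2 residual degrees of freedom. The 4 h against 8 h test used 22 libraries and 11687 genes, with group and set of libraries as terms and 10 residual degrees of freedom. The 6 sets were read from the deposited tables' names, and each held 1 time only. Same-numbered libraries at 4 h deviated together from their group means (correlations 0.837 to 0.903); the numbers in the deposited tables' names also group them, and no label ties them to a shared culture. The script was tested on simulated data. Figures used Python 3.11.15 and matplotlib 3.10.9.

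The comparison and the 25 gene lists were chosen with earlier results of these data known; lists are described by counts and medians, with no list test. Named genes were Creb1, called genes, and genes with assigned symbols and a mean of at least 5 FPKM filled to 10 per direction by the smaller within-pair difference, plus up to 3 per direction in each list and Fos, Npas4, Nr4a1, Egr1, Arc, Bdnf and Crem. Other list members were named after their values were seen. Alternatives were the fit without pairing, other sets of libraries, a pseudocount of 0.1, no filter or a minimum of 5 FPKM, no scaling, quantile normalization, small RNA entries kept, and each library left out. Counts of list members within 1 pair alone were added after the data had been seen.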

Additional observations from a re-analysis of the deposited data

Results flagged for a closer look

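Phtf1 had a WT minus GFP difference of -1.61 at 4 h, negative in both pairs, while the 4 pairs at 8 h gave 0.11, 0.34, 0.07 and 0.09. The difference between the times was -1.78 (SE 0.53, unadjusted p = 0.0049, limma adjusted p = 1), and WT replicate 2 at 4 h was listed at 0.

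The median of ribosomal proteins was 0.12 at 4 h, positive in both pairs, against -0.08, -2.25, -0.02 and -0.04 at 8 h. The -2.25 came from the replicate 2 pair, whose GFP library had an FPKM sum of 394978, the highest at 8 h. At 4 h these genes differed between replicates of the same virus by a median of -2.46. Their values are uncertain, as said above. The median of heat shock genes was 0.06 at 4 h, against -0.05, -0.29, -0.10 and -0.04 at 8 h. For these 2 lists every pair at 4 h lay on 1 side of 0 and every pair at 8 h on the other, and the difference was not tested.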

How the results depend on the processing

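The number of genes called for WT minus GFP at 4 h was 2 with the pairing and 0 without the replicate block, where 8 genes had an unadjusted limma p under 0.05. It was 1 in the fit of all 22 libraries, 1 without a filter and 14 with small RNA entries kept, 12 of these 14 being small RNA entries with a 0 in at least 1 of the 4 libraries. Leaving out 1 library gave 2 to 94 calls, the lone library of that group being assumed to vary like the other groups. S40A minus WT had 1 call, 0 without the replicate block, 0 in the fit of all 22 libraries, 0 without a filter, 12 with small RNA entries kept, and 2 to 16 with 1 library left out. The difference between 4 h and 8 h had 0 calls, and 0 to 3 with 1 library left out. Creb1 kept its size without the replicate block (4.09, limma adjusted p = 0.065) and ranged from 3.96 to 4.22 with 1 library left out. The 19 genes beside Creb1 that were named outside the gene lists, by call or by their within-pair difference, kept their direction in all 285 refits. All but the called DQ267100 had been picked for having 1 sign in both pairs of these same libraries. Their direction was thus largely fixed by the choice and is no separate evidence. In 3 of the refits a call of the reported fit was lost. The pairing changed no other call than those of Creb1 and DQ267100. The immediate early median ranged from 0.12 to 0.50. The cause of these changes was not tested. Read depth is unknown, and with 2 libraries a group the spread rests on few values; the bounds of replicate 1 could not be used to judge precision.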
